A study of Mus musculus with 18 samples.

Results

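The Ikaros zinc finger family comprises 5 genes, Ikzf1 (Ikaros), Ikzf2 (Helios), Ikzf3 (Aiolos), Ikzf4 (Eos) and Ikzf5 (Pegasus), among 20765 named genes on the arrays of this series. Its members were taken by name: every probe set whose deposited gene name was one of the 5 symbols, which gave 13 of 45101 probe sets in a table of 10 arrays and 4 of 22690 probe sets in a table of 8 arrays. The larger table holds 2 probe sets of Ikzf1, 3 each of Ikzf2, Ikzf3 and Ikzf4, and 2 of Ikzf5. The smaller table holds 1 probe set each of Ikzf1 and Ikzf2 and 2 of Ikzf4, and Ikzf3 and Ikzf5 were not analysed there.

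All 18 arrays measured RNA of CD4+ T cells from mice aged 6 to 8 weeks, selected on beads and sorted on GFP. The groups aTreg (Foxp3-positive) and Teff (Foxp3-negative), with 5 arrays each, are lymph node and spleen cells of Foxp3DTR mice, and the mice of both groups had been given DT (diphtheria toxin). The Foxp3DTR allele places the toxin's receptor under Foxp3 control, so the toxin depletes regulatory T (Treg) cells. The groups B16_Treg and B16_Teff came from tumours, and Spl_Treg and Spl_Teff from spleen and lymph nodes, all from Foxp3GFP mice, with 2 arrays each. B16 is a mouse melanoma line, and Foxp3GFP marks cells that transcribe Foxp3. The labels do not say whether animals were pooled or whether arrays came from separate animals, so p-values measure only the spread between these arrays. Nothing used here states the dose and time of DT or the age of the tumours.

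The label "Treg" was checked first. Foxp3, the factor that defines Treg cells, averaged 3.22 ± 0.127 in aTreg and 3.19 ± 0.181 in Teff arrays (log2, SD, n = 5 each). It averaged 3.25 ± 0.074 in B16_Treg, 3.15 ± 0.036 in B16_Teff, 9.97 ± 0.029 in Spl_Treg and 3.12 ± 0.10 in Spl_Teff arrays (log2, SD, n = 2 each). Foxp3 thus went against the label in 7 of 9 Treg arrays, and every direction below goes by the label. The probe set read 9.97 in Spl_Treg but 3.25 in B16_Treg arrays, although both are labelled as Foxp3GFP mice, and the cause was not tested. Whether it can read the reporter alleles' transcripts in all these mice is not settled by the sources used here. Its values alone do not settle the labels. A list of Treg genes, with Foxp3 among them, had 19 measured members. Of these, 16, 18 and 14 were called higher in aTreg, Spl_Treg and B16_Treg than in the matching Teff arrays and none lower. Foxp3 itself was called only in Spl_Treg. Over all genes, 5.1%, 7.21% and 13.6% were called higher. A list of conventional T cell genes had 10 of 13, 10 of 11 and 11 of 11 called lower, against 3.8%, 6.06% and 11.2% of all genes. Both lists were chosen with earlier results of these data known, so they are no independent check of the labels. Spleen and tumour arrays also differed in sex-linked RNA. Xist read at most 2.62 on B16 arrays and at least 10.57 on the arrays of spleen and lymph nodes, so tissue and the sex of the mice cannot be told apart here. Arrays correlated with their own group at 0.986 to 0.992 in DT-treated mice, except aTreg array 4 (0.981), Teff array 4 (0.972) and Teff array 5 (0.977), and at 0.996 to 0.997 in Foxp3GFP mice.

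Ikaros family proteins bind DNA through an N-terminal cluster of zinc fingers and pair with each other through a C-terminal cluster. They recruit chromatin remodelling and deacetylase complexes and can repress or activate genes in lymphocytes. In Treg cells, Helios and Eos are known as partners of the Foxp3 programme, and Eos is a corepressor of Foxp3. Aiolos is known from B cells and from T helper cells in which it silences Il2. Ikaros is required for early lymphoid development, and Pegasus is the most divergent member.

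To show the kind of DNA that Ikaros reads, promoter windows of a pair of listed target genes are given from RefSeq (build GRCm38.p6). They run from 250 bases before to 50 bases after the annotated start. Prdm1 encodes Blimp-1, a repressor of effector lymphocytes, and its window lies at chr10:44458699-44458998 on the minus strand. Il2 encodes the T cell growth factor interleukin 2, and its window lies at chr3:37125905-37126204 on the minus strand. The letters searched were TGGGAA and its reverse complement TTCCCA, the core that the zinc fingers of Ikaros are known to bind, and capitals mark a match.
Prdm1: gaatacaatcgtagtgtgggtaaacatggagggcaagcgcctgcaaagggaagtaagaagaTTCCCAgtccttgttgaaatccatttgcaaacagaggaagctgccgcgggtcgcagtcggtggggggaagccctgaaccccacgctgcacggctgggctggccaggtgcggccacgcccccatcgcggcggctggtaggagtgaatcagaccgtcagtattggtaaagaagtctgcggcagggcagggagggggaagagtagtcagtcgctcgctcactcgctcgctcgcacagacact
Il2: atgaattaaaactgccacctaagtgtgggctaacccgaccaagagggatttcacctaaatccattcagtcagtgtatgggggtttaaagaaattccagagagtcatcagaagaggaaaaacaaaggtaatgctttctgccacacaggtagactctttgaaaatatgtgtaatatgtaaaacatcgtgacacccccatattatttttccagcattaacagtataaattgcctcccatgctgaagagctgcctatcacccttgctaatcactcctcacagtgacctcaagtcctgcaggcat
The Prdm1 window held the letters once, at position -189 from the start, and the Il2 window did not hold them. Of the 20 listed target genes, 17 had a window and 4 of these held the letters (Tbx21, Prdm1, Ptcra and Cd8a). Of all 32851 promoter windows of 300 bases, 8397 (25.6%) held them, and of the family only Ikzf1 and Ikzf5 had windows, without a match. A match describes letters only.

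In DT-treated mice, Ikzf2, Ikzf3 and Ikzf4 were higher in aTreg than in Teff arrays and Ikzf1 was lower, while neither probe set of Ikzf5 passed the test. By limma, with Benjamini-Hochberg adjustment over all probe sets and a threshold of adjusted p under 0.05, 8 of 13 family probe sets were called, 7 higher and 1 lower. Over all probe sets of the table, 3.86% were called higher and 2.9% lower. In 9 of 13 family probe sets the aTreg and Teff arrays did not overlap, against 7.38% of all probe sets. The median log2 difference was 1.25 over the family's probe sets and 0.0148 over all probe sets. These are RNA pools of sorted cells, so a difference in the share of cells that express a gene and a difference in RNA per cell cannot be told apart. Markers of other cells were called here as well. Of 10 plasmacytoid dendritic cell markers, 3 were called lower in aTreg arrays, led by Klk1 (-2.70), and Ccr9 was called higher (0.76, log2, limma). Of 10 markers of macrophages and dendritic cells, Tyrobp was called lower (-1.73) and Itgam higher (1.895). Of 5 natural killer cell markers, Eomes (-1.58) and Klrb1c (-1.10) were called lower. Their part in the family's values was not tested.

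Helios, a marker of many Treg cells, had the largest difference of the family. Ikzf2 probe set 1456956_at read 9.96, 9.64, 9.80, 10.99 and 9.59 on aTreg arrays 1 to 5, against 6.73, 6.08, 6.77, 8.38 and 6.55 on Teff arrays 1 to 5 (log2). The lowest aTreg array lay above the highest Teff array, and array 4 was the highest of its group in both. The difference was 3.10 (log2, SE 0.393, limma adjusted p = 4.89e-04), 8.55-fold, and ranked 11 from the top among the differences of all 45101 probe sets. Ikzf2 probe set 1437542_at read 11.16, 11.15, 11.27, 11.96 and 11.13 on aTreg arrays, against 9.55, 9.06, 9.29, 10.10 and 8.61 on Teff arrays. These did not overlap either, with a difference of 2.01 (log2, SE 0.254, limma adjusted p = 4.71e-04). The dimmest, Ikzf2 probe set 1421643_at, read 5.43, 5.29, 5.73, 5.58 and 5.52 on aTreg arrays, against 2.89, 3.90, 3.80, 3.45 and 3.41 on Teff arrays. Its difference was 2.02 (log2, SE 0.175, limma adjusted p = 3.06e-05). All its Teff values lay below the table's median of 4.09, near the level of Foxp3 in the same arrays, so no fold is given. All 3 Ikzf2 probe sets were thus called in the same direction.

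Array 4 of both groups stood above the other 4 arrays of its group for 3 family probe sets, Ikzf2 1437542_at, Ikzf2 1456956_at and Ikzf3 1453378_at. Hba-a1, a globin of red blood cells, read 8.37 on aTreg array 4 and 7.37 on Teff array 4, and at most 4.44 on the other arrays of this table. Jchain, of plasma cells, read 9.60 on aTreg array 4 and at most 4.50 on the other aTreg arrays, and 7.92 on Teff array 4 and at most 7.41 on the other Teff arrays. Ms4a1, of B cells, read 6.12 on aTreg array 4 and at most 3.44 on the other aTreg arrays, and 6.43 on Teff array 4 and at most 5.65 on the other Teff arrays. These are 1 of 4 plasma cell and 1 of 8 B cell markers that were highest on array 4 in both groups. So were 2 of 4 erythroid markers, 3 of 10 plasmacytoid dendritic cell markers (Tcf4, Ccr9 and Runx2) and 1 of 5 T cell markers (Cd3g). The summed level of 4 erythroid markers spanned 5.12 to 8.55 in aTreg and 5.35 to 7.62 in Teff arrays (log2). The part of these cells in the family's values was not tested. Without aTreg array 4 and Teff arrays 4 and 5, the difference of Ikzf2 1437542_at was 1.88 and that of 1456956_at was 3.22 (log2). Then 10 of 13 family probe sets were called instead of 8, and 5949 instead of 3049 of all 45101 probe sets.

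Eos, the Foxp3 corepressor, was the next. Ikzf4 probe set 1438274_at read 8.22, 8.33, 8.07, 8.36 and 8.19 on aTreg arrays, against 6.33, 6.56, 6.04, 6.50 and 6.20 on Teff arrays (log2). Every aTreg array was above every Teff array, and the difference was 1.91 (log2, SE 0.116, limma adjusted p = 1.93e-06), 3.76-fold. Ikzf4 probe set 1457342_at read 7.88, 7.92, 7.82, 7.84 and 7.71 on aTreg arrays, against 5.73, 5.83, 5.85, 6.24 and 4.99 on Teff arrays. Teff array 5 was the lowest, the groups did not overlap, and the difference was 2.11 (log2, SE 0.186, limma adjusted p = 3.44e-05). The third, Ikzf4 probe set 1460664_at, spanned 3.63 to 4.37 in aTreg and 3.28 to 3.58 in Teff arrays. Its groups did not overlap, but its difference of 0.46 (log2, SE 0.136) missed the threshold (limma adjusted p = 0.073).

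Aiolos, the family member known from B cells and from silencing of Il2, was also higher in aTreg arrays. Ikzf3 probe set 1436649_at read 10.61, 10.68, 10.28, 10.39 and 10.61 on aTreg arrays, against 9.24, 9.40, 9.35, 9.00 and 9.34 on Teff arrays (log2). The difference was 1.25 (log2, SE 0.113, limma adjusted p = 4.2e-05), 2.37-fold, with no overlap. Ikzf3 probe set 1441088_at spanned 6.81 to 7.09 in aTreg and 5.31 to 5.73 in Teff arrays, with a difference of 1.39 (log2, SE 0.110, limma adjusted p = 1.39e-05). The dim Ikzf3 probe set 1453378_at spanned 2.84 to 5.23 in aTreg and 2.42 to 3.98 in Teff arrays, and its difference of 0.75 (log2, SE 0.423) missed the threshold (limma adjusted p = 0.409). Without aTreg array 4 and Teff arrays 4 and 5 its difference was 0.66 with a limma adjusted p of 0.0233. The summed level of 8 markers of B cells, where Ikzf3 is abundant, was 7.83 to 8.35 in aTreg and 8.73 to 8.98 in Teff arrays (log2). The sum is led by Cd22 in Teff arrays (mean 8.46) and by Cd79b, a chain of the B cell receptor, in aTreg arrays (mean 6.77). Cd22 was called lower in aTreg arrays by -2.15, Cd79b was called higher by 1.64 (log2, limma) and the other 6 were not called. Of these markers, 4 of 8 lay below the table's median of 4.09 on every aTreg array and 5 of 8 on every Teff array, and the part of B cells in the Ikzf3 values was not tested.

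Ikaros, the family's founding member, was the only one with a call in the lower direction. Ikzf1 probe set 1436312_at read 10.61, 10.61, 10.43, 10.67 and 10.43 on aTreg arrays, against 11.44, 11.64, 11.42, 11.44 and 11.22 on Teff arrays (log2). All aTreg arrays lay below all Teff arrays, by a mean of -0.88 (log2, SE 0.100, limma adjusted p = 2.31e-04), or 1.84-fold. The dimmer Ikzf1 probe set 1421303_at spanned 4.63 to 5.16 in aTreg and 4.92 to 5.61 in Teff arrays, overlapped, and missed the threshold with -0.37 (log2, SE 0.146, limma adjusted p = 0.193). Pegasus did not pass on either probe set. Ikzf5 1429431_at spanned 6.90 to 7.52 in aTreg and 6.66 to 7.84 in Teff arrays, with a difference of -0.23 (log2, SE 0.212, limma adjusted p = 0.672). It passed, at -0.46 with a limma adjusted p of 0.0459, once aTreg array 4 and Teff arrays 4 and 5 were left out. Ikzf5 1436554_at spanned 5.70 to 5.84 in aTreg and 5.51 to 5.74 in Teff arrays, with a difference of 0.14 (log2, SE 0.0867, limma adjusted p = 0.466).

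Exact two-sided permutation tests over all splits of these 10 arrays into groups of 5 gave p = 0.00794, the smallest they can give, for the 9 probe sets whose groups did not overlap. Groups without overlap always give this value, so it only repeats that count, against 7.38% of all probe sets without overlap. The tests gave 0.0397 for Ikzf1 1421303_at, 0.0476 for Ikzf5 1436554_at, 0.183 for Ikzf3 1453378_at and 0.365 for Ikzf5 1429431_at, unadjusted. Probe sets of one gene did not always vary together within groups. Deviations from the group means correlated at 0.863 between Ikzf2 1437542_at and 1456956_at, but at -0.125 and -0.114 between 1421643_at and these (Pearson's r, 10 arrays, a description).

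**Figure D1:**
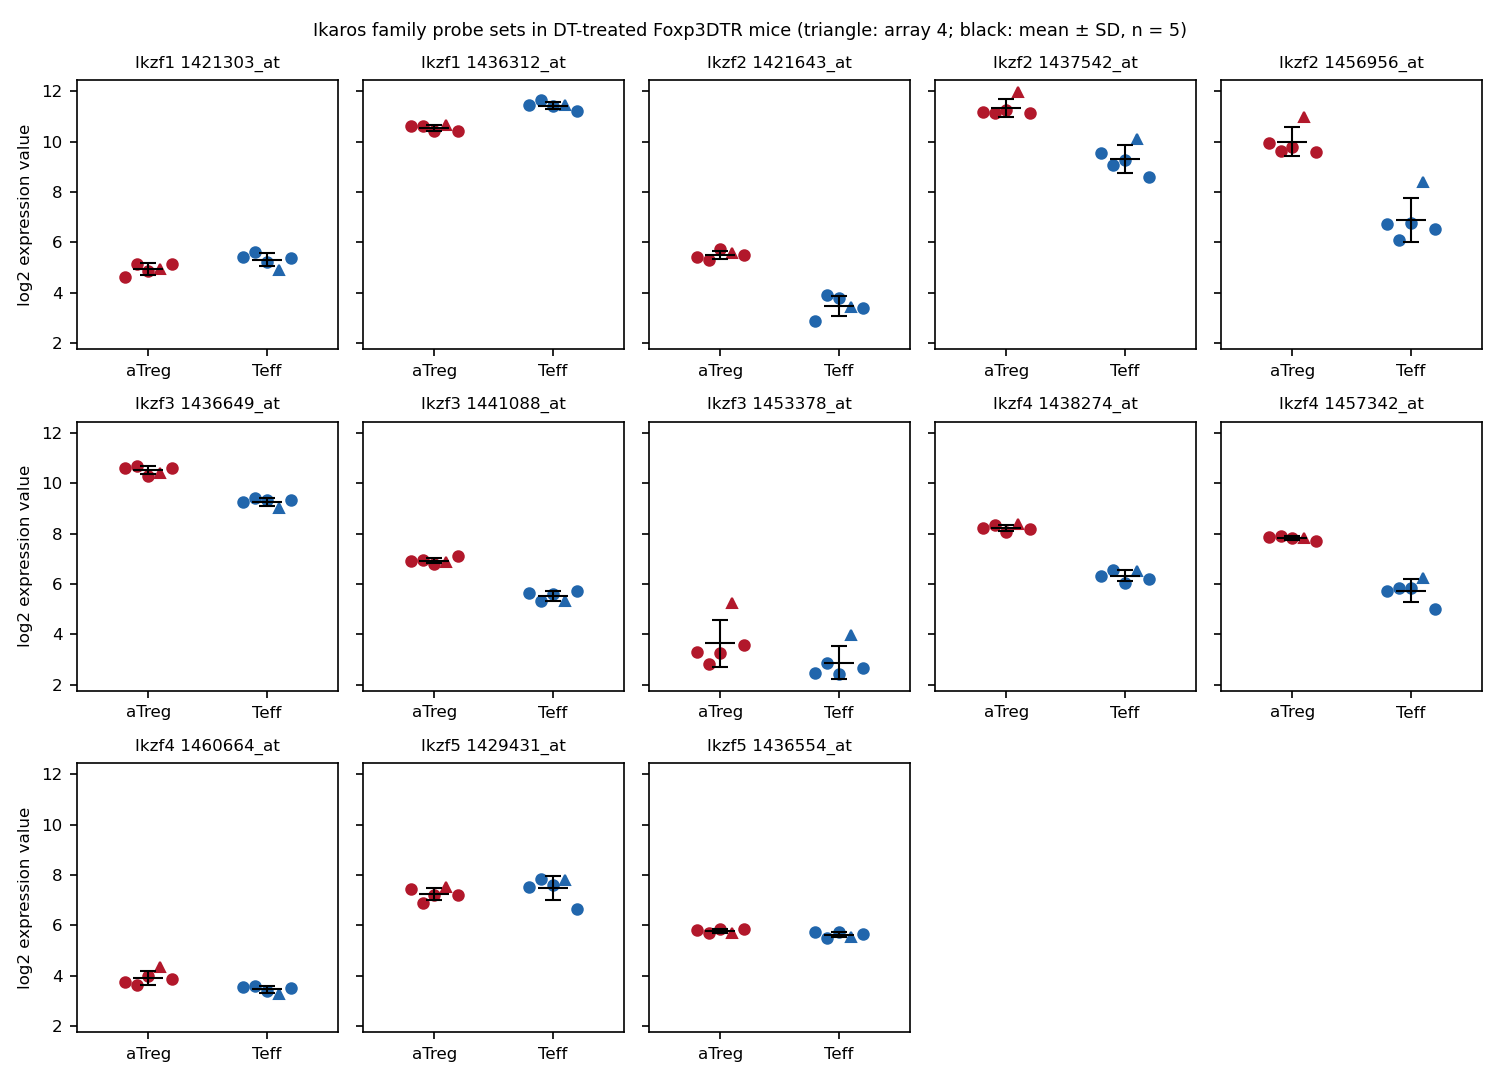
Log2 expression value (vertical axis) of the 13 family probe sets in DT-treated Foxp3DTR mice, with a panel for each probe set, aTreg arrays in red and Teff arrays in blue, array 4 as a triangle, and the mean ± SD (n = 5) in black. The aTreg arrays of all 3 Ikzf2 probe sets, of all 3 Ikzf4 probe sets and of 2 of 3 Ikzf3 probe sets lie above the Teff arrays without overlap, and those of Ikzf1 1436312_at lie below them.

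In spleen and lymph nodes of Foxp3GFP mice, with no DT, Ikzf2 and Ikzf4 were higher and Ikzf1 was lower in Spl_Treg than in Spl_Teff arrays. Of 4 family probe sets, 3 were called higher in Spl_Treg than in Spl_Teff arrays and 1 lower, against 6.27% higher and 6.11% lower over all probe sets. The groups of 2 arrays did not overlap in 4 of 4, but that held for 53.5% of all probe sets. The family's median difference was 1.5 and that of all probe sets -0.00848 (log2). Ikzf4 probe set 1438274_at read 9.35 and 9.15 on Spl_Treg arrays, against 6.27 and 6.32 on Spl_Teff arrays. The difference of 2.95 (log2, SE 0.124, limma adjusted p = 6.25e-06), 7.74-fold, ranked 18 from the top among 22690. Ikzf2 probe set 1421643_at read 7.78 and 7.53 on Spl_Treg arrays, against 5.46 and 5.48 on Spl_Teff arrays, a difference of 2.18 (log2, SE 0.160, limma adjusted p = 8.6e-05).

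The dimmer Ikzf4 probe set 1460664_at, which missed the threshold in DT-treated mice, passed here. It read 4.94 and 4.83 on Spl_Treg arrays, against 4.09 and 4.05 on Spl_Teff arrays, a difference of 0.81 (log2, SE 0.134, limma adjusted p = 0.0052). Ikzf1 probe set 1421303_at, the only one of that gene on the smaller table, read 4.74 and 5.01 on Spl_Treg arrays, against 5.52 and 5.55 on Spl_Teff arrays. It was called lower by -0.66 (log2, SE 0.152, limma adjusted p = 0.0254). The call was lost without Spl_Treg array 1 (adjusted p = 0.142), Spl_Teff array 1 (0.106) or Spl_Teff array 2 (0.13) in limma. This probe set was dim: its group means lay at the percentiles 38.6 to 46.3 of all probe sets on the smaller table. Markers of other cells moved with this comparison too. The plasmacytoid dendritic cell markers summed to 10.8 to 10.9 on Spl_Treg and 11.2 to 11.4 on Spl_Teff arrays (log2), with 4 of 9 called lower, led by Spib (-2.03). Of 10 markers of macrophages and dendritic cells, Lyz2 (1.56) and Csf1r (1.27) were called higher and Tyrobp lower (-1.998, log2, limma), with sums of 10.9 to 11.2 on Spl_Treg and 10.8 to 11 on Spl_Teff arrays. Their part in the family's values was not tested.

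Inside B16 tumours, Helios and Eos were again higher in Treg than in Teff arrays. Of 4 family probe sets, 3 were called higher in B16_Treg than in B16_Teff arrays and none lower, against 12.2% higher and 11.1% lower over all probe sets. All 4 were without overlap, as were 59.5% of all probe sets, and the median difference was 2.07, against 0.00198 over all probe sets (log2). Ikzf2 1421643_at read 7.74 and 8.10 on B16_Treg arrays, against 4.68 and 5.05 on B16_Teff arrays. The difference was 3.05 (log2, SE 0.160, limma adjusted p = 8.83e-06) and ranked 16 from the top. Its B16_Teff values lay below the table's median of 5.88, so no fold is given. Ikzf4 1438274_at read 9.76 and 9.79 on B16_Treg arrays, against 6.56 and 6.89 on B16_Teff arrays. Its difference was also 3.05 (log2, SE 0.124, limma adjusted p = 3.52e-06), ranking 17.

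Ikzf4 1460664_at read 5.11 and 5.28 on B16_Treg arrays, against 4.30 and 3.92 on B16_Teff arrays, a difference of 1.09 (log2, SE 0.134, limma adjusted p = 6.25e-04). Ikzf1 1421303_at read 4.70 and 5.08 on B16_Treg arrays, against 5.43 and 5.17 on B16_Teff arrays. Its difference of -0.41 (log2, SE 0.152) missed the threshold (limma adjusted p = 0.0901), and passed without B16_Treg array 2 (-0.60, limma adjusted p = 0.0402). Other cell types' markers also moved with this comparison. The summed level of 9 markers of plasmacytoid dendritic cells was 11.4 on both B16_Treg arrays and 12.9 to 13.6 on B16_Teff arrays (log2), with 8 of 9 called lower. That of 10 markers of macrophages and dendritic cells was 10.3 to 10.6 on B16_Treg and 11.8 to 12.5 on B16_Teff arrays. Of these, 4 of 10 were called lower, led by the adaptor Tyrobp (-4.94), and Cd14 was called higher (0.64, log2, limma). That of 2 markers of CD8 T cells was 7.15 to 7.27 on B16_Treg and 8.42 to 9.34 on B16_Teff arrays. Markers of T cells summed to 14 to 14.1 on B16_Treg and 13.6 to 13.7 on B16_Teff arrays. The part of these cells in the family's values was not tested.

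**Figure D2:**
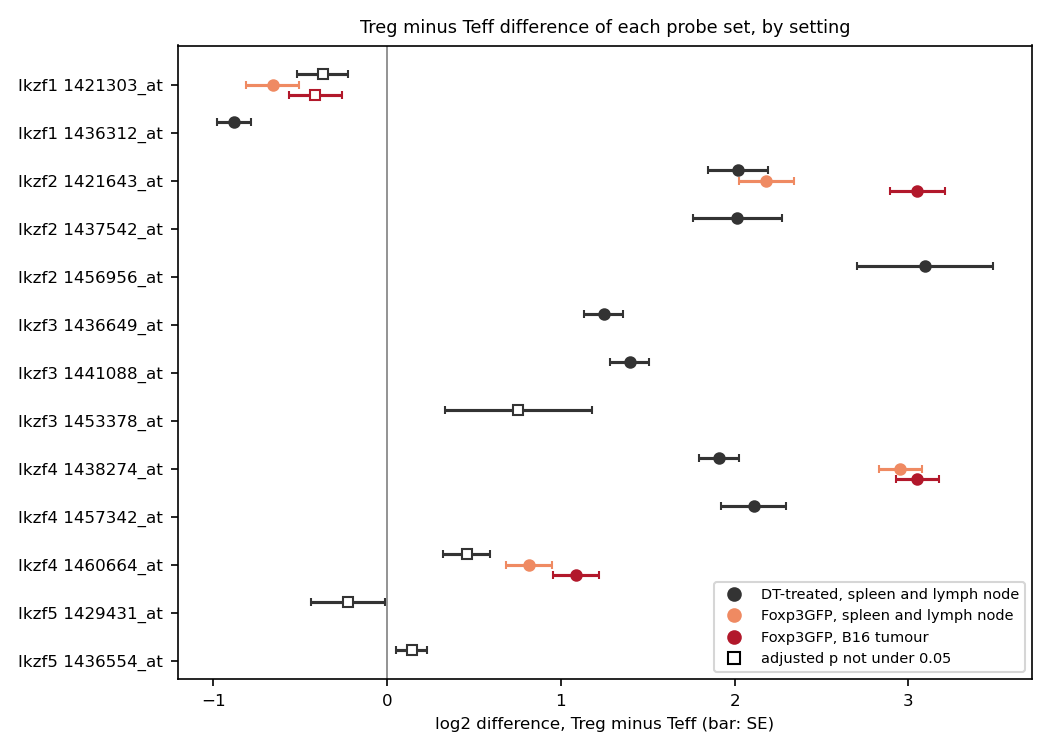
Log2 difference, Treg minus Teff, on the horizontal axis for each family probe set, in DT-treated mice (dark), in spleen and lymph nodes of Foxp3GFP mice (orange) and in B16 tumours (red). Bars are the SE from limma, and open squares have an adjusted p not under 0.05. Every Ikzf2 point lies at 2.01 or above, every Ikzf1 point lies below 0, and Ikzf4 1438274_at spans 1.91 to 3.05.

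Between tumour and lymphoid tissue the family differed less. The level of Ikzf2 1421643_at ran, from the highest group mean, B16_Treg (7.92), Spl_Treg (7.65), Spl_Teff (5.47) and B16_Teff (4.87). The first and second of these did not differ beyond their spread, with a difference of 0.26 for B16_Treg minus Spl_Treg (log2, SE 0.160, limma adjusted p = 0.299). Both Teff means lay below that table's median of 5.88. B16_Teff arrays were called lower than Spl_Teff arrays, by -0.60 (log2, SE 0.160, limma adjusted p = 0.0408). That call was lost without B16_Teff array 1 (adjusted p = 0.193), Spl_Teff array 1 (0.151) or Spl_Teff array 2 (0.159) in limma. The summed level of the plasmacytoid dendritic cell markers was 12.9 to 13.6 on B16_Teff and 11.2 to 11.4 on Spl_Teff arrays, with 8 of 9 called higher. That of 6 melanoma markers was 10.2 to 11.2 on B16_Teff and 7.6 to 7.63 on Spl_Teff arrays, and the part of these cells was not tested.

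The level of Ikzf4 1438274_at ran B16_Treg (9.78), Spl_Treg (9.25), B16_Teff (6.73) and Spl_Teff (6.30). B16_Treg arrays were called higher than Spl_Treg arrays, by 0.53 (log2, SE 0.124, limma adjusted p = 0.0166). That call was lost without B16_Treg array 1 (adjusted p = 0.0693), B16_Treg array 2 (0.0805) or Spl_Treg array 2 (0.0957) in limma. The melanoma markers summed to 10.7 to 11.2 on B16_Treg and 7.52 to 7.56 on Spl_Treg arrays (log2), and their part was not tested. B16_Teff and Spl_Teff arrays differed by 0.43 (log2, SE 0.124), just short of the threshold (limma adjusted p = 0.0532). Ikzf4 1460664_at differed by 0.31 in B16_Treg minus Spl_Treg and by 0.040 in B16_Teff minus Spl_Teff (log2), without a call (limma adjusted p = 0.143 and 0.892). Ikzf1 1421303_at was highest in Spl_Teff (5.54) and B16_Teff (5.30), followed by B16_Treg (4.89) and Spl_Treg (4.88). Its tumour differences of 0.0078 in Treg and -0.24 in Teff arrays did not pass (limma adjusted p = 0.98 and 0.362).

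In counts, 1 of 4 family probe sets was called in B16_Treg minus Spl_Treg, as a rise, against 10.6% higher and 11% lower over all probe sets. In B16_Teff minus Spl_Teff 1 of 4 was called, as a fall, against 6.92% and 7.01%. Arrays did not overlap in 2 of 4 probe sets of the Treg comparison, against 59.1% of all, and in 3 of 4 of the Teff comparison, against 57.6%. These shares are near the background.

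Whether the Treg minus Teff difference itself changed between tumour and lymphoid tissue was tested as an interaction. By limma 0 of 4 family probe sets were called, against 5.06% of all probe sets. An unadjusted p under 0.05 was found for 1 of 4, against 4127 of 22690 probe sets. Ikzf2 1421643_at came closest, with a tumour difference larger by 0.87 (log2, SE 0.227, limma adjusted p = 0.074). It passed without B16_Teff array 2 (1.05, limma adjusted p = 0.04), when only probe sets above the table median were tested (0.0407) and with a trended, robust prior (0.0316). Both Teff means of this Ikzf2 probe set lay below the table's median of 5.88. The interaction was 0.24 for Ikzf1, 0.098 for Ikzf4 1438274_at and 0.27 for Ikzf4 1460664_at (log2), without a call.

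**Figure D3:**
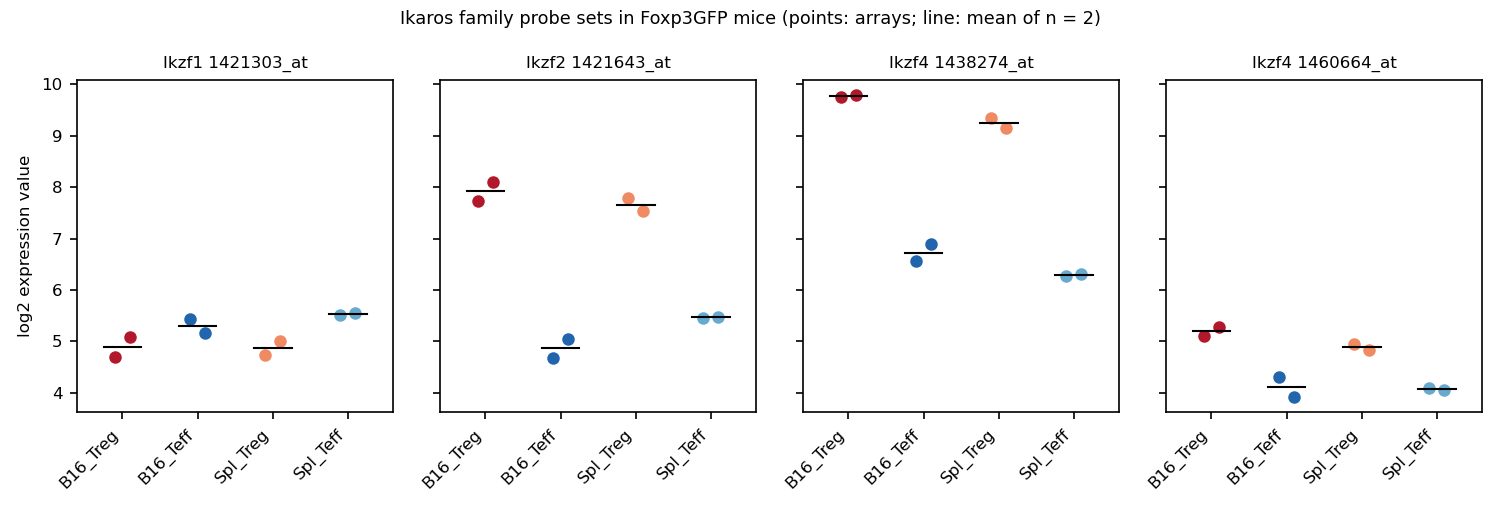
Log2 expression value (vertical axis) of the 4 family probe sets in B16_Treg, B16_Teff, Spl_Treg and Spl_Teff arrays of Foxp3GFP mice, with points for arrays and a line at the mean of n = 2. Ikzf2 and both Ikzf4 probe sets lie higher in both Treg groups than in both Teff groups, and Ikzf1 lies between 4.70 and 5.55 on all 8 arrays.

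Corepressors that Ikaros family proteins recruit were also compared between Treg and Teff arrays. The list held 20 genes of the NuRD, Sin3 and CtBP complexes and related factors. By limma 0 of 20 were called in aTreg minus Teff and 0 of 19 in Spl_Treg minus Spl_Teff. An unadjusted p under 0.05 was found for 2 and 5 of them, against 4324 of 20765 and 3428 of 13212 genes. Over all genes, 5.1% were called higher and 3.8% lower in aTreg minus Teff, and 7.21% and 6.06% in Spl_Treg minus Spl_Teff. In B16_Treg minus B16_Teff 3 of 19 were called higher, against 13.6% of all genes higher and 11.2% lower. They were Hdac7, a class IIa deacetylase (0.50), Gatad2a, a NuRD subunit (0.37), and Sin3b, a Sin3 scaffold (0.30, log2). The list's median differences were 0.0442, 0.000781 and 0.118 in the comparisons of aTreg, Spl_Treg and B16_Treg with Teff, against 0.0277, -0.00255 and 0.00874 over all genes.

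In the tumour, B16_Treg minus Spl_Treg gave 2 of 19 corepressor genes higher and 3 lower, against 11% and 11.7% of all genes. Mbd3, a NuRD subunit, differed by -0.58, Mta2, another, by 0.52, Hdac7 by -0.45 and Ctbp2 by 0.42 (log2). B16_Teff minus Spl_Teff gave 3 of 19 lower and none higher, against 7.57% lower and 7.31% higher. Hdac7 differed by -0.59 and the deacetylase Hdac2 by -0.44 (log2) in this comparison. The interaction called 0 of 19 by limma, against 5.47% of all genes. An unadjusted p under 0.05 was found for 1 of 19, against 2495 of 13212 genes.

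The cereblon ubiquitin ligase, known to degrade Ikaros and Aiolos protein in human cells given thalidomide analogues, was measured through 6 genes. None of 6 was called by limma in aTreg minus Teff, against 5.1% of all genes called higher and 3.8% lower. An unadjusted p under 0.05 was found for 1 of 6, against 4324 of 20765 genes. Dda1, a DDB1-associated subunit, was the only call between Treg and Teff arrays of Foxp3GFP mice, at -0.37 in Spl_Treg minus Spl_Teff and -0.41 in B16_Treg minus B16_Teff (log2, limma adjusted p = 0.0439 and 0.0169). Of all genes, 6.06% and 11.2% were called lower in these. Crbn, the substrate receptor, was called higher in both tumour comparisons, by 0.79 in B16_Treg minus Spl_Treg and 0.87 in B16_Teff minus Spl_Teff (log2, limma adjusted p = 6.37e-04 and 9.44e-04). It was the only one of 6 called in either, against 11% and 7.31% of all genes called higher.

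Among 20 genes known as targets of family members, some were higher and some lower in Treg arrays. In aTreg minus Teff 4 were called higher, 5 lower and 11 were not called. In Spl_Treg minus Spl_Teff 5 were higher, 6 lower and 9 not called, and in B16_Treg minus B16_Teff 6 were higher, 9 lower and 5 not called. The shares of all genes called in each direction are those given with the corepressors. The list's median differences were -0.116, 0.0292 and -0.237 in these comparisons (log2). 7 genes were called in the same direction in all 3 comparisons: Il2ra, Ctla4, Il10 and Prdm1 higher, and Il2, Il4 and Dntt lower. The share of all genes called so in all 3 was not counted, so 7 of 20 has no background here. Il2ra and Ctla4 are on the list of Treg genes as well, and the list of targets was written with earlier results of these data known.

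Il2, silenced by Ikaros family members in T cells and free of the searched letters in the window printed above, was lower in each Treg group. It averaged 2.91 in aTreg and 6.22 in Teff arrays, a difference of -3.31 (log2, SE 0.149, limma adjusted p = 2.2e-07). It averaged 4.18 in Spl_Treg and 6.69 in Spl_Teff arrays (-2.51), and 4.11 in B16_Treg and 8.23 in B16_Teff arrays (-4.12). Il2ra, the high-affinity chain of the receptor for that cytokine, was higher, by 4.04, 4.63 and 4.25 (log2) in the comparisons of aTreg, Spl_Treg and B16_Treg. Prdm1, whose window holds the letters, was higher by 1.95, 2.44 and 1.80 in the same order.

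Il4, a cytokine of type 2 helper cells, was lower in all 3 Treg groups, by -3.72 in DT-treated mice, -2.32 in lymphoid tissue of Foxp3GFP mice and -0.71 in tumours (log2). Its tumour means of 3.15 in B16_Treg and 3.87 in B16_Teff arrays both lay below that table's median of 5.88. Il10, an anti-inflammatory cytokine, was higher by 1.73, 2.45 and 2.14, and Ctla4, an inhibitory receptor, by 3.08, 2.23 and 2.03. Dntt, the terminal transferase of lymphoid precursors, was lower by -1.29, -1.51 and -3.86. Its probe set in DT-treated mice was not the one used in Foxp3GFP mice. Its means of 3.48 in aTreg, 4.90 in Spl_Treg and 4.32 in B16_Treg arrays lay below the medians of their tables, 4.09 and 5.88. Of the plasmacytoid dendritic cell markers, 3 of 10, 4 of 9 and 8 of 9 were called lower in the same comparisons. In DT-treated mice 1 of 10 was called higher. The part of these cells in the Dntt values was not tested. Bcl2, a survival gene, was called lower by limma in tumours (-2.25) and not called in the other comparisons of Treg with Teff arrays, and its interaction was -1.92 (limma adjusted p = 0.00124). Cd8a and Ptcra were called lower in B16_Treg than in B16_Teff arrays (-1.14 and -0.81, log2). The Ptcra means of 3.96 and 4.77 also lay below the median of 5.88. Cd8a is a CD8 T cell marker and Ptcra is also transcribed in plasmacytoid dendritic cells. Markers of both cell types were higher on B16_Teff arrays, as given above, and their part was not tested.

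Between tumour and lymphoid tissue, the follicular homing receptor Cxcr5 and the Notch regulator Dtx1 had the largest differences of the target list in both cell types. Cxcr5 differed by -3.84 in B16_Treg minus Spl_Treg and by -2.87 in B16_Teff minus Spl_Teff (log2). Dtx1 differed by -3.31 and by -2.48. The list had 5 genes higher and 5 lower in the Treg comparison, against 11% and 11.7% of all genes. It had 10 higher and 4 lower in the Teff comparison, against 7.31% and 7.57%. The 10 include Cd8a (1.22), Ptcra (0.73) and Dntt (1.77, log2). Markers of CD8 T cells (2 of 2) and of plasmacytoid dendritic cells (8 of 9) were called higher in that comparison too. The part of these cells was not tested, and tissue and sex cannot be told apart.

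**Figure D4:**
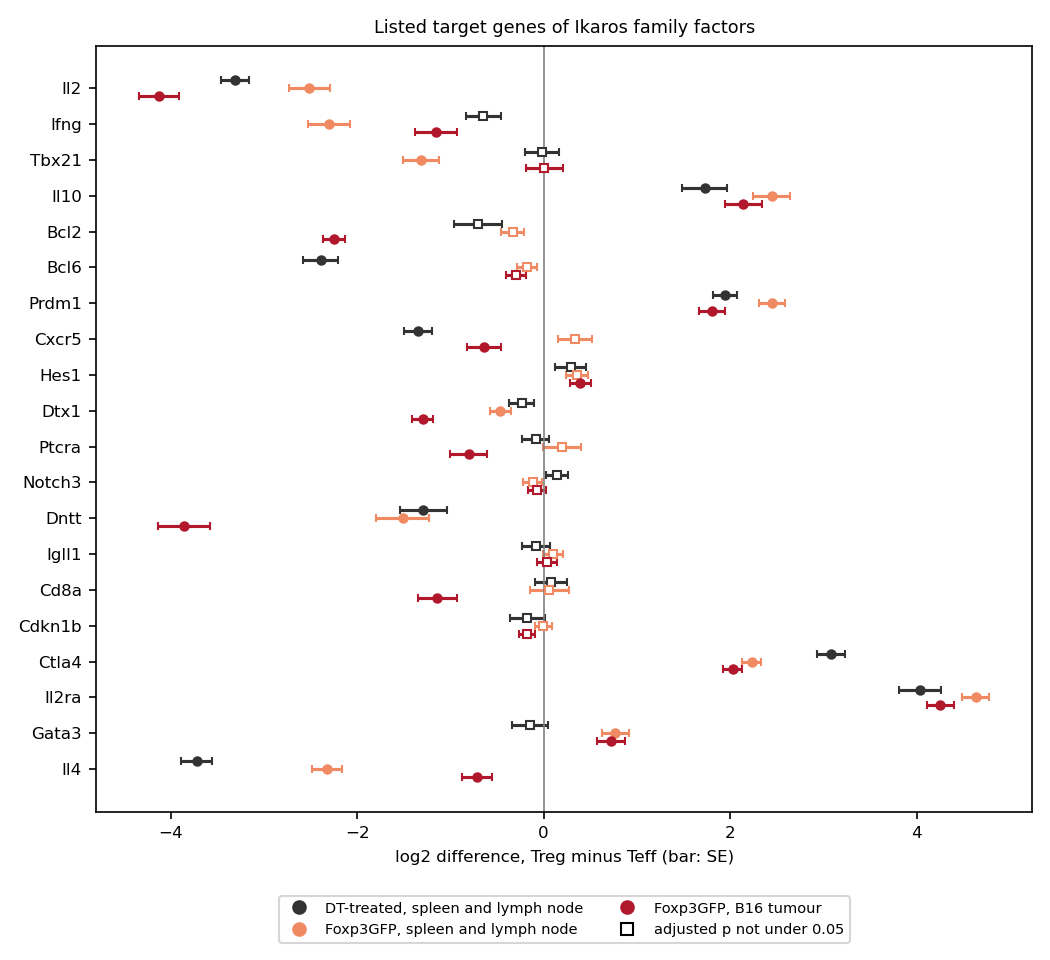
Log2 difference, Treg minus Teff, on the horizontal axis for the 20 listed target genes, in DT-treated mice (dark), in spleen and lymph nodes of Foxp3GFP mice (orange) and in B16 tumours (red). Bars are the SE from limma, and open squares have an adjusted p not under 0.05. Il2 lies between -4.12 and -2.51 and Il2ra between 4.04 and 4.63 in the 3 settings.

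Genes whose pattern over arrays was most like that of a member were taken by the lower of a pair of Pearson correlations, over the 10 and over the 8 arrays. The gap between Treg and Teff groups leads these values, and they are a description. For Ikzf4 1438274_at the 5 nearest were Lamc1 (0.986 and 0.980), Slc2a3, Klrg1, Ctla4 and Il2ra (0.967 and 0.992). For Ikzf2 1421643_at they were H2az1 (0.956 and 0.984), Lclat1, Mcm6, Cd2 and Il2ra (0.947 and 0.953). Il2ra was thus among the 5 nearest of both. For Ikzf1 1421303_at they were Xylt2 (0.895 and 0.912), Ranbp10, Cltb, Ndrg3 and Gprc5b (0.839 and 0.930). Ikzf3 and Ikzf5 have no probe set on both tables, so no such gene was named for them.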

How the data were processed

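The values deposited by the authors are log2 expression per probe set. The submitters' processing notes name RMA, a method that corrects background, applies quantile normalization and summarises probes, without its version. They came as 2 value tables, normalized separately and never fitted together. Array medians lay within 4.05 to 4.14 and 5.87 to 5.9, and no scaling was added. Scanner intensities were not used here, nor were 21 value columns of a further table, which gave gene names only. Symbols were updated through RefSeq (GRCm38.p6).

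Probe sets were tested in R 4.3.3 by limma 3.58.1 (lmFit, then eBayes), without covariates or replicate block, and adjusted over all probe sets of the table. Groups of DT-treated mice were fitted alone and the other 4 groups together. The code was tested on simulated data. The members, lists and tests were chosen with earlier results of these data known. All family probe sets were named. From the lists of corepressors, the cereblon ligase and targets, up to 4 called genes with the largest absolute difference per comparison were named by rule, each gene by its probe set of highest mean. A result that this rule would name is not reported here. Other named genes (Bcl2's interaction, genes called in all 3 comparisons, Crbn, Cd8a and Ptcra) were chosen after their values were seen. Alternatives were median centring, a filter on dim probe sets, 1 value per gene, a trended robust prior, groups fitted alone, a replicate block and leaving out arrays. The number of arrays limits the precision.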

Additional observations from a re-analysis of the deposited data

Results flagged for a closer look

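26 groups of 5 arrays, 1 for each family probe set in aTreg and in Teff, were examined for an array far from the others, where chance alone would mark about 1 in 20. In 3 of them the gap to the nearest array, divided by the group's range, was above Dixon's critical value of 0.71. Ikzf2 1437542_at read 11.96 on aTreg array 4 (0.832 of the range). Ikzf2 1456956_at read 10.99 on the same array (0.741 of the range). Ikzf5 1429431_at read 6.66 on Teff array 5 (0.714 of the range). Hba-a1, Jchain, Ms4a1 and the other markers counted for array 4 above were also highest on aTreg array 4. Their part in the Ikzf2 values was not tested.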

How the results depend on the processing

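Among single family probe sets, 390 alternative values kept direction and side of the threshold, 11 newly passed it, 9 lost it and 5 changed sign. The called differences of Ikzf2, Ikzf3 and Ikzf4 between Treg and Teff arrays kept their calls under every alternative that tested them. The count of called family probe sets in Spl_Treg minus Spl_Teff was 2 instead of 4 when only probe sets above the table median were tested, since 2 dim probe sets then dropped out. In B16_Teff minus Spl_Teff it was 2 instead of 1 with that filter and with a trended, robust prior, and 2 genes instead of 1 were called with the highest probe set per gene. In the interaction it was 1 instead of 0 with the filter and with that prior. Leaving out 1 array at a time gave 0 to 1 calls in B16_Treg minus Spl_Treg, 0 to 1 in B16_Teff minus Spl_Teff and 0 to 1 in the interaction. Differences that changed sign were all small and uncalled, and the cause was not tested: Ikzf1 in B16_Treg minus Spl_Treg (-0.18 without B16_Treg array 2, -0.13 without Spl_Treg array 1, at most 0.20), Ikzf4 1460664_at in B16_Teff minus Spl_Teff (-0.15 without B16_Teff array 1, at most 0.23), and the Ikzf4 1438274_at interaction (-0.066 without B16_Teff array 1, -0.0054 without Spl_Treg array 2, at most 0.26).

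Replicate numbers are shared between groups, but nothing in the labels says that they mark a shared animal or day. Deviations of same-numbered aTreg and Teff arrays correlated at 0.0436 to 0.517, and 7 of 10 arrays correlated best with their own number. With the number as a replicate block, 9 family probe sets instead of 8 were called in aTreg minus Teff (limma adjusted p = 0.0142 for Ikzf3 1453378_at), and 5343 instead of 3049 of all probe sets. The block left the family counts of the other comparisons at 4, 3, 1, 1 and 0. Over all probe sets, calls in aTreg minus Teff were 5949 without aTreg array 4 and Teff arrays 4 and 5. Leaving out 1 array gave as few as 1348 of 2809 in Spl_Treg minus Spl_Teff, 3123 of 4900 in B16_Treg minus Spl_Treg, 1404 of 3160 in B16_Teff minus Spl_Teff and 544 of 1149 in the interaction. Testing 1 value per gene, among fewer features, gave 1834, 3360 to 3371, 3116 to 3152 and 2090 calls in Spl_Treg minus Spl_Teff, B16_Treg minus B16_Teff, B16_Treg minus Spl_Treg and B16_Teff minus Spl_Teff.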
